A study of Mus musculus with 6 samples.

Results

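Endogenous siRNAs (endo-siRNAs) of 21 to 23 nt were followed in round spermatids, the haploid cells that arise from meiosis in the testis, of Miwi knockout (KO) and wild-type (WT) mice. The entries were chosen from a deposited small RNA count table by 3 criteria: a name marked as mouse endo-siRNA, a length of 21 to 23 nt, and at least 15 counts summed over 6 libraries. They numbered 169 of 468 endo-siRNA entries of that length, of 784 endo-siRNA entries of any length and of 45932 entries in all. The study asked how small RNAs of round spermatids change without MIWI (PIWIL1) and whether such cells can father normal offspring. The KO group held 3 libraries of round spermatids from males of a global Miwi KO line that was recovered from cryopreserved sperm. The WT group held 3 libraries of the same cells from wild-type males. Both groups were C57BL/6 mice at postnatal day 21. Per the study's design text, KO round spermatids form but do not develop past their early steps. The libraries carry numbers 1 to 3 in each genotype, and nothing says that each number is a separate animal, so a p-value speaks only of the variation among these libraries, part or all of which may be technical. The Miwi mRNA was not analysed here, because the table counts small RNAs.

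Endo-siRNAs are cut by the nuclease Dicer from long double-stranded RNA, such as the paired transcripts of inverted repeats or of genes and their pseudogenes, and are bound by Argonaute proteins of the AGO clade. MicroRNAs (miRNAs) are cut by the same nuclease from short hairpins and have nearly the same length. The piRNAs bound by MIWI are longer, are made without Dicer and are the most abundant small RNAs of spermatocytes and round spermatids. Endo-siRNAs are best known from mouse oocytes and have also been described in male germ cells.

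The levels of endo-siRNAs are given per 100000 miRNA counts of the same library, so that another product of Dicer sets the scale. Of the 5 most abundant miRNAs, 4 are shown because they carry this scale; the other is miR-34c-5p, at 7.42% of the miRNA counts on average. Sequences are from RefSeq (build GRCm38.p6), with the seed, bases 2 to 8, in capitals. miR-34b-5p (chr9:51103610-51103632, minus strand) made up 20.3% of the miRNA counts on average, miR-16-5p (chr14:61631936-61631957, minus strand, 1 of 2 places) 6.82%, and miR-19b-3p (chr14:115044358-115044380, plus strand, 1 of 2 places) 5.34%. miR-468-5p (chr6:81896629-81896655, minus strand), an entry of 27 nt, made up 2.99%.
mmu-miR-34b-5p: aGGCAGUGuaauuagcugauugu
mmu-miR-16-5p: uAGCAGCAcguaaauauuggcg
mmu-miR-19b-3p: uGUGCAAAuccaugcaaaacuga
mmu-miR-468-5p: gACUGAUGuacugauaagaaacucagu
Among these, miR-468-5p was at 447, 369 and 553 per 100000 miRNA counts in KO and at 6011, 4863 and 5699 in WT. Limiting the miRNA totals to entries of 24 nt or less was an alternative chosen after seeing the data. By the test used below, 44 endo-siRNAs then rose and 32 fell, against 46 and 30 on the scale used here. On the scale used here, 4.68% of all RNAs tested rose and 73.9% fell. These shares are not given for the limited totals, where the median log2 change of all RNAs was -2.21.

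The table held 747443 to 1335013 counts in the KO libraries and 3114845 to 5037232 in the WT libraries. Its miRNA counts were closer, at 146487 to 243655 in KO and 179761 to 246030 in WT, and summed to 624884 over the KO libraries and 621818 over the WT libraries. A single count was therefore worth between 0.406 and 0.683 per 100000 miRNA counts. The replicate 3 library of each genotype was rich in snoRNA counts, with 3087 per 100000 miRNA counts in KO, where the others had 937 and 677, and 8826 in WT, where the others had 3291 and 2177. Without both replicate 3 libraries, 36 endo-siRNAs rose and 24 fell. The shares of all RNAs are not given for that run, where their median log2 change was -2.02. The libraries were also compared on miRNA markers of cell types. The germ cell markers miR-34b-5p, miR-34c-5p and miR-449a-5p summed to 29573 to 33510 per 100000 miRNA counts in KO and 27437 to 29109 in WT. Listed for meiotic and postmeiotic cells together, they cannot tell round spermatids from spermatocytes. Of these, miR-34b-5p and miR-34c-5p are also a large part of the scale itself. Of the markers of other cells, 6 of peritubular and mesenchymal cells summed to 1521 to 2005 in KO and 2162 to 3076 in WT. In the same order, 2 endothelial ones summed to 804 to 872 and 833 to 858, and 4 spermatogonial ones to 651 to 836 and 715 to 863. The 5 leukocyte ones summed to 197 to 227 and 157 to 209, 3 Sertoli and gonadal ones to 171 to 225 and 190 to 236, and 3 erythroid ones to 3.83 to 5.46 and 8.34 to 12.2. By the test used below, 1 of 3 germ cell and 1 of 5 leukocyte markers rose in KO. Those that fell were 5 of 6 peritubular and mesenchymal and 1 of 3 erythroid markers, and the other lists had no call. Only miR-383-5p of the Sertoli and gonadal list was at 0 in every library. The part of other cells in the endo-siRNA results was not tested.

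The members were chosen by their summed counts, which range from the limit of 15 to 1061 with a median of 38. The 13 members just inside the limit, with 15 to 17 counts, had a median of 10 counts in KO and 7 in WT, and the 26 entries just outside it, with 12 to 14 counts, a median of 6.5 in KO and 7 in WT. The limit takes both genotypes together: 104 members reached 15 counts in the KO libraries alone, 95 in the WT libraries alone, 66 in each and 36 in neither. A member near the limit can have passed through the genotype where it is high, so the counts of changed members below describe this set and are not support for a change of endo-siRNAs in general. All 169 members entered the test, and 105 of them had fewer than 50 counts.

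Summed and set against miRNAs, the 169 endo-siRNAs were slightly more abundant in KO round spermatids, while single endo-siRNAs differed between the genotypes by far more, in both directions. Summed over the 169 members, the level was 1405, 1214 and 1325 per 100000 miRNA counts in the KO libraries and 953, 1068 and 1188 in the WT libraries. Every KO library lay above every WT library, by a narrow margin between KO replicate 2 and WT replicate 3. The mean was 1315 ± 95.5 in KO and 1069 ± 117 in WT (SD, n = 3 each), 1.23-fold higher in KO. Set against table totals, the same sum was 4.16-fold higher in KO. With miRNA totals limited to entries of 24 nt or less it was 1.17-fold higher. The library values on that scale are not given here, so the lack of overlap holds for the scale used here only. The 299 entries of this length under the limit of 15 counts went the other way, with 68.2 ± 8.55 in KO libraries, against 96.0 ± 6.71 in WT libraries (SD, n = 3 each). In bulk samples, fewer cells of a type and less RNA per cell cannot be told apart.

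Of the 169 endo-siRNAs, 46 rose in KO, 30 fell and 93 did not pass the threshold (edgeR, adjusted p of 0.05). Across the 33432 RNAs tested, 4.68% rose and 73.9% fell, 78.5% in all. The median log2 change was -0.07 for the endo-siRNAs and -2.14 for all RNAs tested, of which most are piRNAs. All KO libraries lay above all WT libraries for 47 members and below them for 34, which leaves 47.9% of the members without overlap, where 79.4% of all RNAs tested had none (KO above in 5.49%, below in 73.9%). The scale decides this split. With TMM factors, which set the bulk of the table as unchanged and moved the median of all RNAs by 1.91, 114 members rose and 5 fell, beside 30% and 36.1% of all RNAs (66.1% in all). With plain table totals, which moved it by 1.73, 108 rose and 6 fell, beside 26.9% and 39.5% (66.4% in all).

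**Figure D1:**
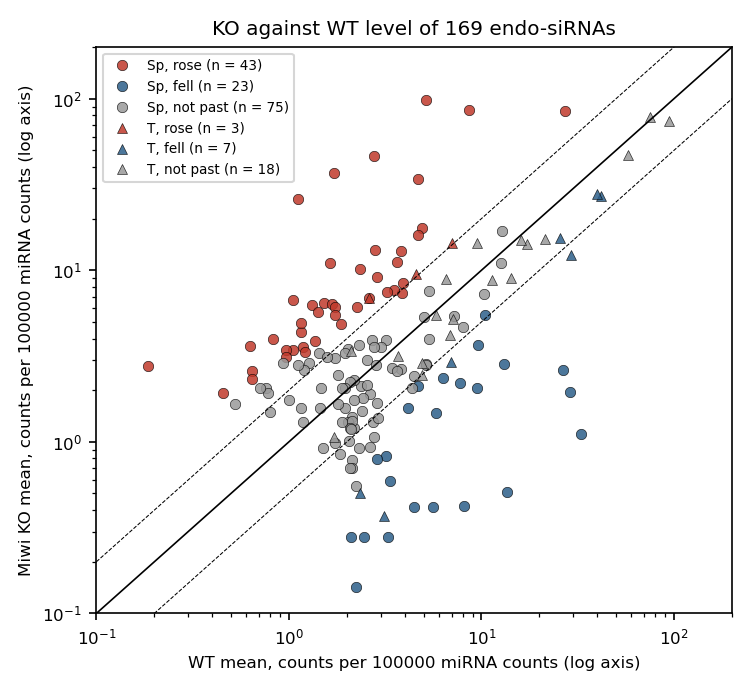
Mean level of the 169 endo-siRNAs in 3 Miwi KO libraries (vertical axis) and 3 WT libraries (horizontal axis), in counts per 100000 miRNA counts on log axes; circles are Sp names, triangles T names, and colours mark members that rose, fell or did not pass (edgeR). The solid line marks equal levels and the dashed lines a doubling or halving. T names lie along the solid line at the abundant end, and the called Sp names lie to both sides of it, most of them beyond the dashed lines. With TMM factors of the whole table in place of miRNA totals, 114 members rose and 5 fell.

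The 2 series of names in the table had different counts of calls. The deposited names run as endo-siRNA-Sp or endo-siRNA-T with a number, and the letters are not explained in the sources used here. Of the 141 Sp members 43 rose, 23 fell and 75 did not pass, with a median log2 change of 0.17. Of the 28 T members 3 rose, 7 fell and 18 did not pass, with a median of -0.41. A fitted change of at least 1 on the log2 scale, in either direction, was found for 61.0% of the Sp members and 21.4% of the T members. The share was 75.1% for all RNAs tested, 40.2% for piRNA entries of 21 to 23 nt and 10.9% for miRNAs. Among members with at least 50 but fewer than 500 counts, 20 of 40 Sp members rose and 11 fell, while 3 of 18 T members rose and 5 fell. Among members with at least 500 counts, all 3 Sp members rose and all 3 T members did not pass. The difference between the series was not tested, since the members of a series are not replicates.

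Summed levels followed the same division. The Sp members summed to 971, 801 and 883 per 100000 miRNA counts in KO and to 517, 540 and 582 in WT. Their lowest KO library was well above their highest WT library, with means of 885 ± 85.1 in KO and 546 ± 33.3 in WT (SD, n = 3 each), 1.62-fold higher in KO. The T members summed to 434, 414 and 442 in KO and to 436, 528 and 605 in WT. These libraries overlapped, with means of 430 ± 14.4 in KO and 523 ± 84.6 in WT (SD, n = 3 each). T names made up 30.9% to 34.1% of the member counts in the KO libraries and 45.8% to 51.0% in the WT libraries.

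The members with the largest changes were also summed on their own. The 6 members with a log2 change of at least 3 were chosen here by their change and therefore without a test. All 6 have Sp names, so they are part of the Sp sum above. The KO mean of that Sp sum exceeded its WT mean by 339, and the KO mean of these 6 exceeded theirs by 277. The Sp sum without them is not given here, so a rise of the Sp series beyond these 6 is not shown. They had a summed level of 297 ± 21.9 in KO libraries, against 19.6 ± 0.285 in WT libraries (SD, n = 3 each). Since these were left out for their rise, the sum without them has to be closer or lower in KO: the other 163 members summed to 1018 ± 80.4 in KO, against 1050 ± 117 in WT, and these overlapped. At the other end, 10 members with a log2 change of -3 or less, 9 Sp and 1 T, summed to 8.22 ± 0.718 in KO, against 129 ± 18.7 in WT. Of all 33432 RNAs tested, 53 had a log2 change of at least 3 and 11471 one of -3 or less. Falls of this size were thus rarer among the 169 members than in the whole table, and rises more frequent.

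**Figure D2:**
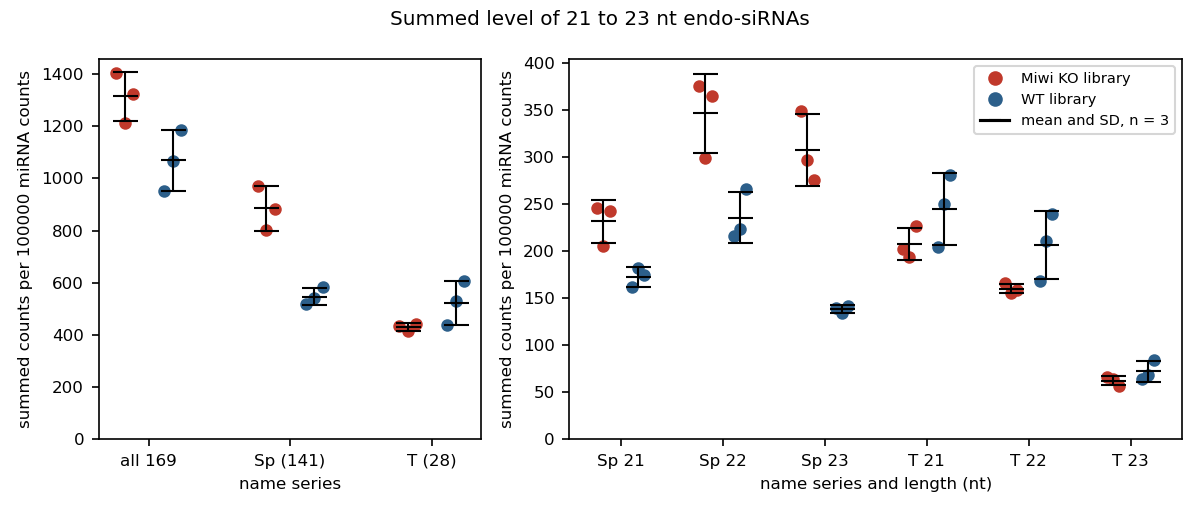
Summed level of the 21 to 23 nt endo-siRNAs per 100000 miRNA counts in each Miwi KO and WT library, for all 169 members and by name series (left) and by series and length in nt (right); bars give the mean and SD of 3 libraries. The KO libraries lie above the WT libraries for the Sp names of each length, between 801 and 971 against 517 and 582 in sum, and overlap with or lie below them for the T names.

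By length, the members of 22 nt rose most often and the sum of those of 23 nt differed most. Of 56 members of 21 nt 10 rose and 10 fell, of 74 members of 22 nt 25 rose and 13 fell, and of 39 members of 23 nt 11 rose and 7 fell. Their median log2 changes were -0.39, 0.30 and -0.22. The 23 nt members summed to 369 ± 41.9 in KO libraries, against 210 ± 13.8 in WT libraries (SD, n = 3 each), 1.76-fold higher in KO without overlap. Sp190 and Sp247, the largest rises at this length, made up much of the KO sum, and the other 37 members summed to 185 ± 24.4 in KO, against 197 ± 13.5 in WT, a description only, since these were picked for their rise and the falls were left in. The 21 nt members, at 439 ± 35.8 in KO and 418 ± 46.2 in WT, and the 22 nt members, at 506 ± 46.2 and 441 ± 61.2, overlapped between the genotypes. Lengths were not compared by a test.

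By mean level, Sp190 (23 nt) was the most abundant member in KO round spermatids and a minor one in WT, although T3 led in KO replicate 3. The level of Sp190 was 119, 95.6 and 81.7 per 100000 miRNA counts in the KO libraries and 7.23, 4.59 and 3.66 in the WT libraries. Every KO library was more than 10 times above every WT library. The mean was 98.7 ± 18.8 in KO, against 5.16 ± 1.85 in WT (SD, n = 3 each), and the log2 change was 4.28 with an SE of 0.28, as given after each log2 change below (edgeR adjusted p = 6.63e-24). Sp247, also of 23 nt, was at 83.5, 90.8 and 83.7 in KO and at 7.23, 8.16 and 10.6 in WT. Its replicates lay close together within each genotype, and it rose by 3.28 ± 0.25 on the log2 scale (edgeR adjusted p = 3.83e-20).

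Among 22 nt members, 3 had rises of like size from a lower WT level. Sp226 was at 49.4, 43.0 and 46.8 per 100000 miRNA counts in KO and at 1.67, 4.59 and 2.03 in WT, and rose by 4.06 ± 0.34 on the log2 scale (edgeR adjusted p = 3.34e-18). Sp244 was at 40.9, 35.5 and 34.9 in KO and at 1.67, 1.02 and 2.44 in WT, a change of 4.35 ± 0.38 (edgeR adjusted p = 1.37e-17). Sp371 was counted 61, 29 and 78 times in KO, against 2, 2 and 3 times in WT, and rose by 4.47 ± 0.44 (edgeR adjusted p = 2.21e-15). No WT library held more than 9 counts of any of these, so the size of the rise rests on small WT numbers while its direction is shared by every pair of libraries. Sp233 (22 nt), the remaining member above a log2 change of 3 and picked out once its values were known, had 18 KO counts against 1 WT count, a ratio of 17.9 with an interval of 2.83 to 746 that covers counting error only (exact, 95%).

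At 21 nt, Sp600 and Sp34 rose. Sp600 was at 91.6, 71.7 and 89.9 per 100000 miRNA counts in KO and at 22.8, 32.1 and 26.8 in WT, 3.10-fold higher in KO (log2 change 1.63 ± 0.22, edgeR adjusted p = 3.15e-10). It was thus one of the most abundant members in KO and was also readily counted in WT, with 41, 63 and 66 counts. Sp34 was at 36.2, 31.4 and 34.9 in KO and at 5.01, 6.12 and 2.85 in WT, a log2 change of 2.90 ± 0.33 (edgeR adjusted p = 7.20e-13). The rises of Sp237 (23 nt, 2.65 ± 0.51) and Sp197 (22 nt, 2.27 ± 0.44) completed the 8 largest among members with at least 50 counts, with more spread among KO libraries. Sp237 ranged from 6.83 to 18.7 in KO, where KO replicate 1 was the high one, and from 0.510 to 3.25 in WT, where WT replicate 3 was the high one. Its log2 change was 2.00 without KO replicate 1 and 3.73 without WT replicate 3, and it passed both times. Sp197 ranged from 8.19 to 18.9 in KO and from 1.63 to 4.59 in WT.

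Other Sp endo-siRNAs had few counts in KO. Sp395 (22 nt) was the Sp member with the highest mean level in WT round spermatids. It was counted 4, 0 and 4 times in KO, against 52, 47 and 112 times in WT. Its level averaged 1.12 ± 0.966 in KO, against 32.8 ± 11.3 in WT (SD, n = 3 each), and the log2 change was -4.64 ± 0.43 (edgeR adjusted p = 1.84e-16). Sp169 (21 nt) was at 2.13, 2.05 and 1.64 in KO and at 23.4, 34.7 and 28.9 in WT, and fell by 3.87 ± 0.39 on the log2 scale (edgeR adjusted p = 7.08e-15). Sp702 (23 nt) was at 1.28, 4.10 and 2.46 in KO and at 25.6, 29.1 and 24.8 in WT, and fell by 3.41 ± 0.38 (edgeR adjusted p = 5.78e-13). In each of these the highest KO library was several times below the lowest WT library.

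Sp324 and Sp165, also of 22 nt, had 3 counts each in all KO libraries together. Sp324 was counted 2, 1 and 0 times in KO, against 18, 28 and 40 times in WT, a ratio of WT to KO of 28.8 with an exact 95% counting interval of 9.53 to 142 (edgeR adjusted p = 5.92e-11). Sp165 was counted 2, 0 and 1 times in KO, against 16, 11 and 24 times in WT, a ratio of 17.1 with an interval of 5.53 to 85.6 (edgeR adjusted p = 1.83e-07). The other named falls, all of 22 nt, were smaller. Among members with at least 50 counts, Sp167, Sp38 and Sp49 fell by 2.17 ± 0.49, 2.06 ± 0.43 and 1.74 ± 0.50 on the log2 scale, but with TMM factors of the whole table none of them passed and the log2 change of Sp49 was 0.17. Sp38 was uneven among KO libraries, from 0.683 in KO replicate 2 to 5.75 in KO replicate 3, and was between 10.6 and 14.6 in WT. Without KO replicate 3 the log2 change was -3.04 for Sp38 and -2.79 for Sp167.

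**Figure D3:**
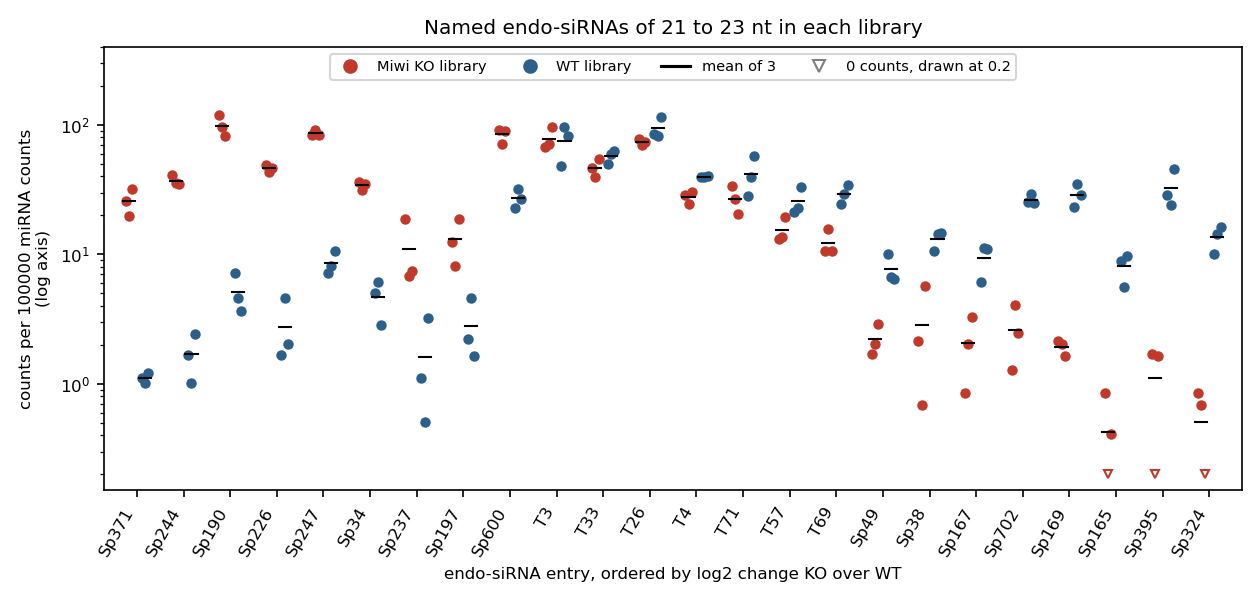
Level of the 24 named endo-siRNAs in each library, in counts per 100000 miRNA counts on a log axis, with the KO libraries left of the WT libraries for each and black lines at the means; open triangles mark libraries with 0 counts. Sp190 lies between 81.7 and 119 in KO and between 3.66 and 7.23 in WT, Sp395 lies near the opposite end with at most 1.70 in KO, and the T names in the middle lie close together.

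The 3 most abundant members of WT round spermatids were T endo-siRNAs, and none of these passed the threshold on the scale used here. T26 (21 nt) was at 78.0, 69.6 and 73.9 per 100000 miRNA counts in KO and at 84.6, 82.1 and 115 in WT. All KO libraries lay below all WT libraries, yet the log2 change of -0.35 ± 0.20 did not pass (edgeR adjusted p = 0.101). T3 (21 nt) was at 67.7, 71.7 and 96.0 in KO and at 47.8, 95.9 and 82.5 in WT, with a log2 change of 0.06 ± 0.21 (edgeR adjusted p = 0.809). T33 (22 nt) was at 46.9, 39.6 and 54.2 in KO and at 49.5, 59.7 and 63.4 in WT, with a log2 change of -0.29 ± 0.21 (edgeR adjusted p = 0.205). The range of 2 SE around each of these changes lies inside a doubling or halving. On the scale of the whole table with TMM factors the same endo-siRNAs changed by 1.59, 1.99 and 1.65. Each passed there as a rise (edgeR adjusted p = 2.78e-13, 3.75e-16 and 1.16e-12). With miRNA totals limited to entries of 24 nt or less, T26 passed as a fall (log2 change -0.42, edgeR adjusted p = 0.0462). T3 and T33 did not pass on those totals (edgeR adjusted p = 0.944 and 0.109).

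Of the other abundant T members, 4 fell relative to miRNAs, all by less than the Sp members named above. T69 (22 nt) was at 10.7, 15.7 and 10.7 per 100000 miRNA counts in KO and at 24.5, 29.1 and 34.1 in WT, with a log2 change of -1.28 ± 0.28 (edgeR adjusted p = 3.75e-05), which turned to 0.64 with TMM factors of the whole table. T57 (23 nt, -0.74 ± 0.28), T71 (22 nt, -0.64 ± 0.25) and T4 (21 nt, -0.50 ± 0.23) had edgeR adjusted p of 0.0134, 0.0149 and 0.0457, and changed by 1.21, 1.30 and 1.43 with those factors. These 3 calls were close to the threshold. T71 overlapped between the genotypes and did not pass without KO replicate 3 (log2 change -0.47, adjusted p = 0.120) or WT replicate 3 (-0.33, adjusted p = 0.188). T57 did not pass without KO replicate 1 (log2 change -0.62, adjusted p = 0.0694) or WT replicate 3 (-0.50, adjusted p = 0.0970). T4 kept a log2 change of -0.43 to -0.57 without each library, but passed only when WT replicate 3 was the one left out (adjusted p = 0.0451), with adjusted p of 0.0526 to 0.129 otherwise.

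Further T members, picked out once their values were known, complete the calls in this series. T52 (23 nt), T70 (22 nt) and T73 (23 nt) rose by 1.01 ± 0.35, 0.98 ± 0.42 and 1.37 ± 0.50 on the log2 scale. T52 did not pass without KO replicate 2 (edgeR adjusted p = 0.0510), T70 not without KO replicate 2 (0.163) or WT replicate 2 (0.123), and T73 not without KO replicate 1 (0.0522). T30 (21 nt) fell by 1.31 ± 0.49, with 0.59 under TMM factors of the whole table, where it did not pass, and it was lost without KO replicate 3 (edgeR adjusted p = 0.0597) or WT replicate 2 (0.0622). T31 (22 nt) had 2 KO counts against 20 WT counts, a ratio of WT to KO of 10.05 with an interval of 2.44 to 88.7, and T56 (21 nt) had 3 KO counts against 15 WT counts, a ratio of 5.02 with an interval of 1.42 to 27.1. T56 passed only when KO replicate 2 or WT replicate 2 was the library left out. Both are among the 7 T members with fewer than 50 counts.

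The order of the members differed between the genotypes. By mean level, KO round spermatids were led by Sp190, Sp247, Sp600, T3 and T26, at 98.7 ± 18.8, 86.0 ± 4.15, 84.4 ± 11.04, 78.5 ± 15.3 and 73.8 ± 4.16 per 100000 miRNA counts (SD, n = 3 each), and neighbours in this order overlapped. WT round spermatids were led by T26, T3, T33, T71 and T4, at 93.9 ± 18.3, 75.4 ± 24.8, 57.5 ± 7.19, 41.7 ± 14.6 and 39.7 ± 0.503, where neighbours overlapped as well. Of the 12 members with the highest means, 6 were shared between the genotypes. The 12 most counted members of each library held 49.9% to 51.2% of the member counts in KO and 43.2% to 48.7% in WT.

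Libraries of a genotype ranked the members alike, and libraries of different genotypes did so for T names. Spearman's rho over the 169 members was between 0.75 and 0.81 for pairs of KO libraries, between 0.70 and 0.74 for pairs of WT libraries and between 0.24 and 0.38 for a KO with a WT library. For the 28 T members it was between 0.90 and 0.95 within KO, between 0.93 and 0.94 within WT and between 0.78 and 0.91 across genotypes. For the 141 Sp members it was between 0.66 and 0.75 within KO, between 0.58 and 0.64 within WT and between 0.02 and 0.17 across genotypes. The series differ in depth, as 98 of the 141 Sp members and 7 of the 28 T members had fewer than 50 counts. Among those with at least 50 counts, rho across genotypes was between -0.42 and -0.28 for 43 Sp members and between 0.69 and 0.88 for 21 T members. These values are descriptions. They share the miRNA scale and the limit on summed counts, and a limit on a sum lowers a correlation between its parts. The spread between libraries, which holds counting error and any difference between samples, was large for members with few counts: the median coefficient of variation between replicates was 49.6% in KO and 45.5% in WT for members with 15 to 49 counts, and 14.3% in KO and 19.7% in WT for those with at least 500.

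Other small RNAs are given beside the 21 to 23 nt endo-siRNAs, with no test between classes. The 478 miRNAs tested had a median log2 change of -0.15, and 26 rose and 57 fell, so 17.4% of them were called beside 45.0% of the endo-siRNAs. Because the miRNAs set the scale, their sum is fixed as unchanged, and their median and share of calls are in part a result of that. The 10th and 90th percentiles of the log2 change were -1.81 and 1.94 for the endo-siRNAs and -0.88 and 0.62 for the miRNAs. Entries named as piRNAs but of 21 to 23 nt were closer: of 533, 107 rose and 128 fell, or 44.1%, with a median of 0.02 and percentiles of -2.21 and 1.25. In sum they were at 9631 ± 616 in KO libraries, against 10014 ± 780 in WT libraries (SD, n = 3 each), and the genotypes overlapped. Of longer piRNAs, 81.8% of the 17407 of 29 to 30 nt fell and 88.6% of the 6355 of 31 nt or more.

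Endo-siRNA entries shorter than 21 nt went the other way in sum. The 116 entries of 19 and 20 nt with at least 15 counts summed to 1095, 1012 and 1012 per 100000 miRNA counts in KO and to 1575, 1580 and 1886 in WT. Every KO library was below every WT library, with means of 1040 ± 47.9 in KO, against 1680 ± 178 in WT (SD, n = 3 each). Of these entries 14 rose and 49 fell, with a median log2 change of -0.80. The fall was most frequent at 19 nt, where 2 of 62 rose and 34 fell, while at 20 nt 12 of 54 rose and 15 fell. By series, 14 of 93 Sp entries rose and 37 fell (median log2 change -0.77), and 0 of 23 T entries rose and 12 fell (-1.21). A log2 change of at least 1 in either direction was found for 64.5% of these Sp and 52.2% of these T entries, beside 75.1% of all RNAs tested. The T entries of this length thus did not share the smaller changes of the T members. The entries of 24 nt or more with at least 15 counts numbered 0.

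**Figure D4:**
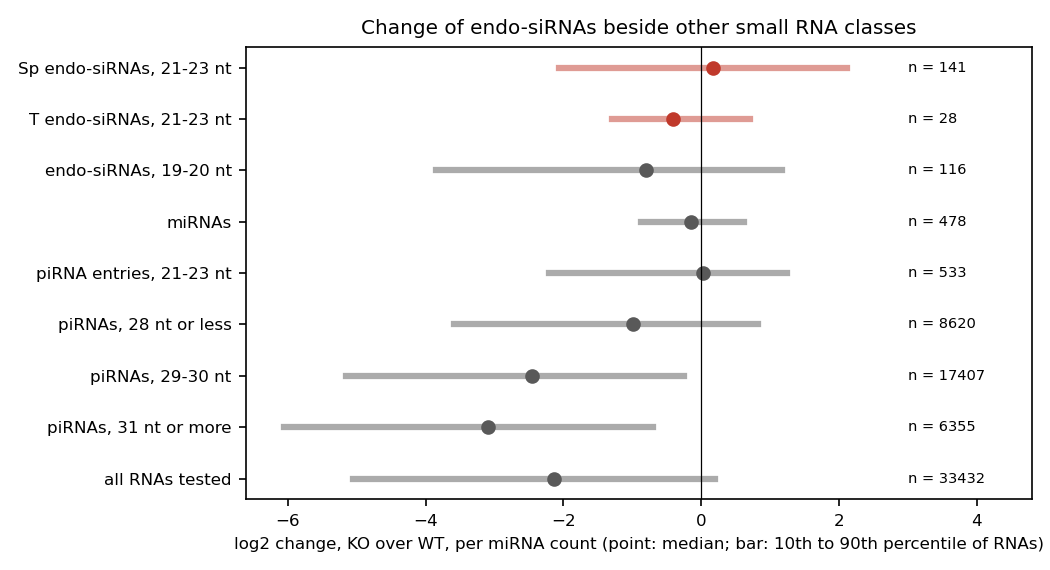
Median (point) and 10th to 90th percentile (bar) of the log2 change, KO over WT per miRNA count, for the Sp and T endo-siRNAs of 21 to 23 nt and for other classes of small RNA, with the number of RNAs tested in each. The Sp endo-siRNAs spread widely around a median of 0.17, the T endo-siRNAs and the miRNAs spread less, and the longer piRNAs lie far below 0. The miRNAs set the scale, so their place near 0 is in part fixed by it. TMM factors of the whole table move all medians up, by 1.91 for all RNAs.

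Among members with at least 50 counts, the largest changes were called whichever library was left out, and most of them on the scale of the whole table. Of the 46 rises 25 and of the 30 falls 17 passed in the same direction without each of the 6 libraries in turn. The 8 largest rises and 8 largest falls of members with at least 50 counts were among these. They had been picked from called members without overlap of the genotypes, so passing again with a library left out adds little. The share of all RNAs tested that passed in this way is not given here. The rises of Sp190, Sp247, Sp226, Sp244 and Sp371 were larger with TMM factors of the whole table, between 5.22 and 6.39 on the log2 scale, and the falls of Sp395, Sp169 and Sp702 were smaller, at -2.73, -1.97 and -1.51, where each passed; Sp167, Sp38 and Sp49 did not pass there.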

How the data were processed

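Small RNA counts came from 3 Miwi KO and 3 WT libraries of purified round spermatids, grouped by genotype from the library titles. The authors deposited raw counts per reference sequence, made with featureCounts v1.5.0-p2 per the file headers; cutadapt, DESeq2 and build mm9 are named in the submitters' processing notes. The aligner, its mismatch limit and the handling of multi-matching reads: not given in the sources used here, so counts of sequences that share reads are uncertain. Indexed lengths were reduced by 20, which matched the length in the name for 249 of 249 tRNA entries.

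All 33432 RNAs of the small RNA table with at least 15 counts over the 6 libraries were tested with edgeR 4.0.16 in R 4.3.3 (two-sided quasi-likelihood test, no block, Benjamini-Hochberg adjustment, threshold 0.05), with the library size set to the summed miRNA counts. The SE is the log2 coefficient divided by the square root of F. Sums and intervals were computed in Python 3.11.15 with scipy 1.17.1. The model was run on simulated counts with few changed RNAs, as many up as down, and a fixed dispersion. In the data most RNAs fell, so that run checks the code and not the calls made here. Alternatives were other scalings, other filters, DESeq2 1.42.0, a replicate block, left-out libraries and other length or count limits; miRNA totals of entries of 24 nt or less were added after seeing the data. The members, the lists and the rules were chosen with earlier results of these data known. Members named with values are the 12 with the highest mean level, the 8 largest rises and 8 largest falls among called members with at least 50 counts and no overlap of the genotypes, and the up to 4 smallest changes among members with at least 500 counts. The piRNA cluster table was not used here.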

Additional observations from a re-analysis of the deposited data

How the results depend on the processing

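The numbers of endo-siRNAs that rose and fell, 46 and 30, depended on the scale. They were 114 and 5 with TMM factors of the whole table and 108 and 6 with table totals. The sum over members was 4.16-fold higher in KO with table totals and 1.23-fold with miRNA totals. TMM factors of the miRNAs gave 48 and 23. DESeq2 called 30 rises and 20 falls, all among those of edgeR. Shares of all RNAs are given above for miRNA totals, TMM factors of the whole table and table totals only. Fewer members entered with filterByExpr (72 tested; 34 rises, 13 falls), with at least 50 counts (26 and 16) and with 22 nt only (25 and 13). Leaving out each library in turn gave 36 to 43 rises, 23 to 27 falls and a sum 1.17-fold to 1.30-fold higher in KO. With the replicate number as a block, 41 rose and 28 fell; same-numbered libraries had correlations of their deviations of 0.030, 0.101 and 0.148, each library matched its own number best, and the labels give no pairing, so this is a hint from the data only. Of the 24 named members, TMM factors of the whole table turned the log2 change of T26 to 1.59, T33 to 1.65, T71 to 1.30, T4 to 1.43, T57 to 1.21, T69 to 0.64 and Sp49 to 0.17, a scale that moved the median of all RNAs by 1.91. Of 334 comparisons of a named member under an alternative, 304 kept direction and side of the threshold, and in 4, all of T3 (log2 change 0.06 as reported), the sign turned while it stayed short of the threshold, at -0.02, -0.12, -0.18 and -0.06. Depth limits members under 50 counts, where the median coefficient of variation was 49.6% in KO and 45.5% in WT.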

Other observations

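The 299 endo-siRNA entries of 21 to 23 nt with fewer than 15 counts, which were not tested, summed to 77.1, 60.1 and 67.3 per 100000 miRNA counts in the KO libraries and to 92.9, 91.3 and 103.6 in the WT libraries. Every KO library was below every WT library, the opposite of the order found for the 169 entries above the limit.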
